A study of Mus musculus with 9 samples.

Results

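The sites described here are the Hoxa13 peaks of the mouse limb bud at E11.5 (E numbers are days of embryonic development) that share no bp with any Hoxa13 peak of the autopod at E11.0 or of the limb bud at E12.5. They number 96662 of the 143460 peaks called at E11.5 (67.4%, exact 95% binomial interval 67.1 to 67.6), out of 243649 peaks in all 5 lists of the series. The members were chosen by where the 3 Hoxa13 lists overlap, so that share is the rule itself and not a finding. The label holds only as a statement on these lists, since a site may be bound at E11.0 or E12.5 without being called there.

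Chromatin was taken from wild-type ICR embryos and precipitated with home-made antibodies to Hoxa13 or Hoxa11, then sequenced (ChIP-seq). The Hoxa13 groups were the E11.0 autopod (the distal part of the limb bud that forms hand or foot; 11 pairs in the immunoprecipitation), the E11.5 limb bud (whole limb buds of a litter) and the E12.5 limb bud, with 1 library each. Hoxa11 was precipitated from E11.5 limb buds in replicates 1 and 2, and 4 further libraries are input DNA, not analysed here. The E12.5 library was prepared by a different, earlier procedure. Stage, dissected tissue and procedure therefore cannot be told apart in any difference between the Hoxa13 lists. With 1 library a stage there is no replicate of the E11.5-alone list, read depth is unknown, and no test over conditions was possible. Intervals for shares count peaks only, not embryos.

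Hoxa13 and Hoxa11 are homeodomain transcription factors encoded in the HoxA gene cluster. Hoxa13 acts in the distal limb, where it is needed, together with Hoxd13, to form the digits, and Hoxa11 acts mainly in the zeugopod, the segment of forearm and lower leg. Both recognise short AT-rich DNA sites, and their expression domains in the limb bud become separate as it grows. All positions are 1-based in the mouse build mm9. The reference in hand is of another build, so peaks were not assigned to genes and no sequence was read.

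The E11.5-alone sites tended to be narrower than the other E11.5 peaks, with much overlap in width. Their median width was 267 bp, with the middle 50% between 230 and 316 bp, against a median of 341 bp (280 to 419) for the 46798 E11.5 peaks met at another stage. Those peaks are of 3 kinds: early-shared (15712 peaks that meet a peak at E11.0 and none at E12.5), late-shared (17319 that meet one at E12.5 and none at E11.0) and those of all stages (13767). Their median widths were 315, 328 and 391 bp. The smallest width in the list, 203 bp, was that of 4127 E11.5-alone peaks (4.27%) and of 581 of the other peaks (1.24%). At the other end, 2470 E11.5-alone peaks (2.56%) exceeded 500 bp, against 6351 of the others (13.6%). The E11.5-alone sites covered 27.6 of the 45.1 Mb in E11.5 peaks, or 61.2%.

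The share found at E11.5 alone fell step by step with width, as a description of the lists. It was 85.8% among peaks of 203 to 230 bp, 81.7% at 231 to 266 bp and 73.8% at 267 to 308 bp. Among wider peaks it was 58.5% at 309 to 368 bp and 36.8% (36.2 to 37.3) above that. Width is the only size measure in this list, and a wider peak also has more bases by which to be met, so the parts of binding strength and of geometry in this gradient were not tested.

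**Figure D1:**
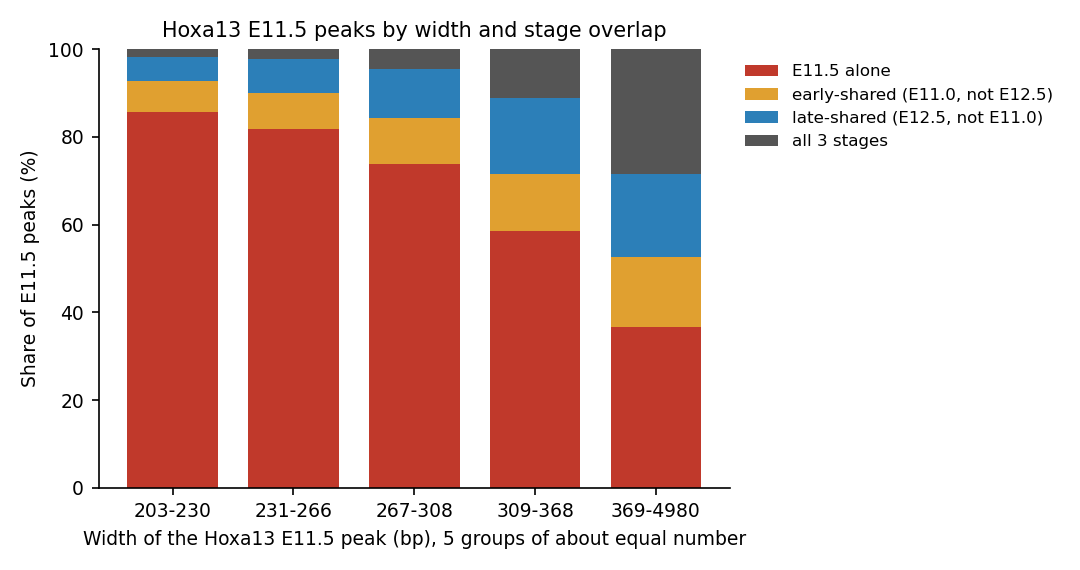
Share of Hoxa13 E11.5 peaks (y axis, %) found at E11.5 alone (red), early-shared (yellow), late-shared (blue) or found at all 3 stages (grey), in 5 groups by peak width (x axis, bp). The red part goes from 85.8% among the narrowest peaks to 36.8% among the widest.

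The share without a partner also moved with the lists compared. Of the widest 44699 E11.5 peaks, as many as the E12.5 list holds, 19168 (42.9%) had no partner in the full outer lists, and 19805 (44.3%, 43.8 to 44.8) had none when the E11.0 list was limited to its widest 44699 as well. The fall from 67.4% thus came with leaving out the narrower E11.5 peaks, and limiting the E11.0 list raised the share slightly. With shorter lists of the widest peaks at each stage the share was higher, at 58.4% for 10000 and 62.5% for 5000 peaks per list. The widest 5000 E11.5 peaks held against the full outer lists gave 1164 without a partner (23.3%).

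Few members lay at the border of the rule. Only 22 E11.5-alone peaks were within 10 bp of a peak of another stage, and 33 excluded peaks overlapped one by 1 to 10 bp. The member nearest to the border, on chromosome 4 from 16370399 to 16370705, lay 1 bp from such a peak. On the far side, the excluded peak on chromosome 1 from 179160693 to 179160895 shared 1 bp. Within 500 bp of another stage's peak were 3179 members (3.29%), and 588 were that close to both stages.

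By the rule each member lacks a peak of the other stages at its own place, and the distance to the nearest such peak varied widely. To a peak of either stage the median was 10280 bp, with 29.7% of the members within 5 kb and 49.2% within 10 kb. Taken by stage, the median was 17059 bp to the nearest E11.0 peak and 17668 bp to the nearest E12.5 peak, with the middle 50% at 6683 to 38883 bp and 6804 to 39673 bp. Within 1 kb lay an E11.0 peak for 4.09% and an E12.5 peak for 4.22% of the members. More than 50 kb from both stages were 8047 members (8.32%). The distances to both outer stages were thus of like size, one an autopod and the other a limb bud sample.

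The Hoxa11 lists took no part in the rule and give a separate readout of the same sites. A replicated Hoxa11 site is an interval where peaks of both Hoxa11 replicates overlap, and there were 1023. Of the E11.5-alone peaks, 177 (0.183%, 0.157 to 0.212) met a replicated Hoxa11 site, against 0.593% of all E11.5 peaks. Among late-shared peaks the share was 11.4 times that of the E11.5-alone peaks, a difference of −1.90 points for E11.5-alone minus late-shared (Newcombe 95% interval −2.13 to −1.70). Peaks of all 3 stages exceeded it 11.6 times (−1.95 points, −2.20 to −1.72).

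Early-shared peaks behaved otherwise. Only 20 of 15712 met a replicated Hoxa11 site (0.127%), a difference from the E11.5-alone peaks of 0.0558 points with an interval from −0.0178 to 0.109 that includes 0. Split by E12.5 alone, 654 of the 31086 E11.5 peaks met at E12.5 (2.104%, 1.95 to 2.27) and 197 of the 112374 not met there (0.175%, 0.152 to 0.202) held a replicated Hoxa11 site. The E11.5-alone sites are 96662 of the latter.

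Both Hoxa11 replicates gave the same order. In replicate 1, 632 E11.5-alone peaks (0.654%, 0.604 to 0.707) met a Hoxa11 peak, against 1.46% of all E11.5 peaks, 4.38% of late-shared and 0.509% of early-shared peaks. In replicate 2 the numbers were 267 E11.5-alone peaks (0.276%, 0.244 to 0.311), against 0.803% of all, 2.59% of late-shared and 0.255% of early-shared peaks. By title, replicate 1 shares its input library with Hoxa13 at E11.5 and replicate 2 has another input. The order of the classes was the same with either.

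Since wide peaks are met more easily, the shares were compared at like width. From the narrowest to the widest of the 5 width groups, 0.226, 0.299, 0.424, 0.801 and 2.68% of E11.5-alone peaks met Hoxa11 replicate 1, against 0.252, 0.367, 0.498, 0.902 and 5.29% of all E11.5 peaks of that width. For replicate 2 the E11.5-alone shares were 0.0847, 0.111, 0.236, 0.347 and 1.07%, against 0.131, 0.168, 0.303, 0.451 and 2.98%. For replicated sites they were 0.0605, 0.0683, 0.146, 0.209 and 0.762%, against 0.0865, 0.115, 0.205, 0.276 and 2.29%. The E11.5-alone share thus rose with width as that of the whole list did, and stayed below it in each group.

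The late-shared peaks differed at every width. Among the narrowest peaks, of 203 to 230 bp, 56 of 24793 E11.5-alone peaks (0.226%) met Hoxa11 replicate 1, and 16 of 1605 late-shared peaks (0.997%) did, a difference of −0.771 points (−1.39 to −0.383). In replicate 2 the same widths gave 0.0847% and 0.997% (−0.912 points, −1.53 to −0.527). In each of the 5 width groups and with either replicate, the E11.5-alone share was below that of the late-shared peaks, and the interval of the difference excluded 0. The widest group has no upper bound, and its median widths were 427 bp for E11.5-alone and 445 bp for late-shared peaks.

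**Figure D2:**
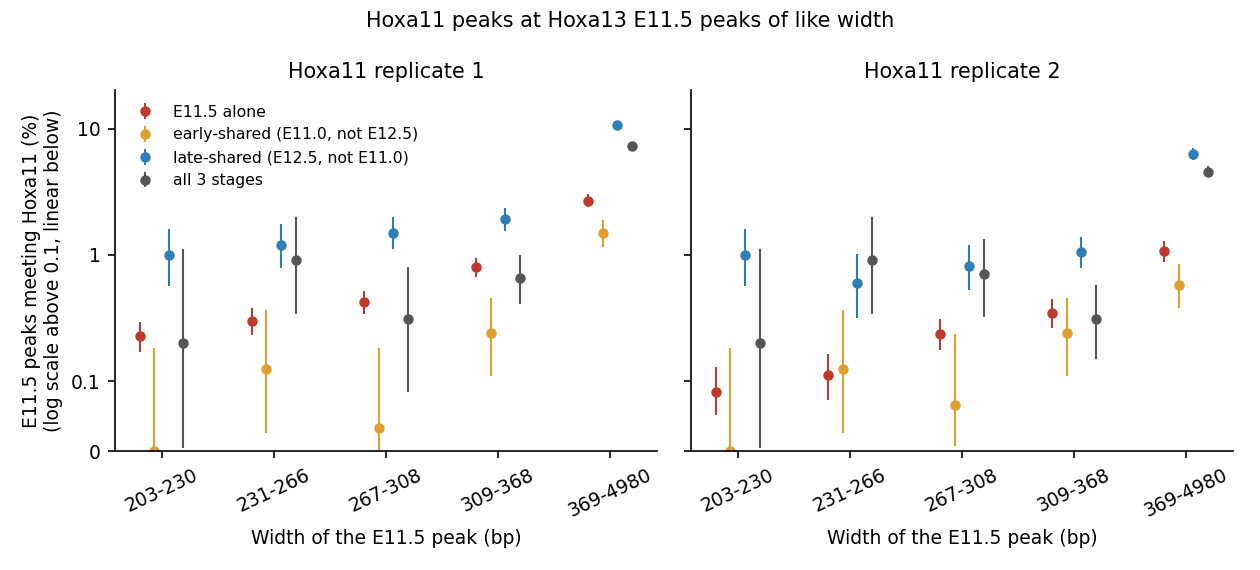
Share of Hoxa13 E11.5 peaks that meet a Hoxa11 peak (y axis, %, log scale above 0.1 and linear below) in replicate 1 and replicate 2, by width of the E11.5 peak (x axis, bp) and stage class (colours), with exact 95% binomial intervals. In the widest group E11.5-alone peaks (red) lie at 2.68% and 1.07%, below the late-shared peaks (blue, 10.6% and 6.28%) and above the early-shared (yellow, 1.49% and 0.576%).

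Against the early-shared peaks, the E11.5-alone sites met Hoxa11 more often among the widest peaks. Above 368 bp, 282 of 10503 E11.5-alone peaks met replicate 1 (2.68%, 2.38 to 3.01) and 67 of 4511 early-shared peaks did (1.49%, 1.15 to 1.88), a difference of 1.20 points (0.707 to 1.65). Replicate 2 gave 1.07% and 0.576%, a difference of 0.490 points (0.169 to 0.772). Replicated sites gave 0.762% and 0.310% (0.451 points, 0.194 to 0.675). At 309 to 368 bp the interval excluded 0 for replicate 1 (0.562 points, 0.314 to 0.747) but not for replicate 2 (0.107 points, −0.121 to 0.259). For replicated sites it excluded 0 narrowly (0.156 points, 0.00376 to 0.246). The replicate 1 interval also excluded 0 at 203 to 230 bp (0.0283 to 0.293) and at 267 to 308 bp (0.219 to 0.492). At 231 to 266 bp it did not (−0.0768 to 0.288). With replicate 2 and with replicated sites, no interval below 309 bp excluded 0. At 231 to 266 bp both of these differences were negative (−0.0143 and −0.0570 points).

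The comparison with the sites of all 3 stages depended on width. At 231 to 266 bp, 16 of 23412 E11.5-alone peaks (0.0683%) and 3 of 654 peaks of all stages (0.459%) held a replicated Hoxa11 site, a difference of −0.390 points (−1.27 to −0.0848). With replicate 2 the difference was −0.806 points (−1.88 to −0.307) at that width and −0.465 points (−1.09 to −0.125) at 267 to 308 bp. With replicate 1 it was −0.618 points (−1.69 to −0.116) at 231 to 266 bp. At 267 to 308 bp replicate 1 had the opposite sign, at 0.113 points with an interval from −0.381 to 0.326. For replicated sites at 267 to 308 bp the interval reached from −0.541 to 0.0783. At 309 to 368 bp, 35 of 16731 E11.5-alone peaks (0.209%) and 4 of 3200 peaks of all stages (0.125%) held a replicated Hoxa11 site, with an interval of the difference from −0.120 to 0.196 points. A finer split above 368 bp was made after these values were seen. At 369 to 450 bp the E11.5-alone share was 0.582% (0.410 to 0.801) and that of all stages 0.585% (0.363 to 0.893). At 451 to 600 bp the shares were 0.869% and 2.18%, and above 600 bp they were 1.62% (0.911 to 2.66) and 11.3% (9.90 to 12.9). The gap in points between all stages and E11.5-alone was thus widest above 600 bp, with no steady course below that. Widths are not matched in that open group. E11.5-alone peaks end at 1611 bp and those of all stages at 4714 bp, with medians above 600 bp of 671 and 718 bp. Late-shared peaks stood at 2.44% at 369 to 450 bp.

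Seen from the Hoxa11 side, 174 of the 1023 replicated Hoxa11 sites (17.0%, 14.8 to 19.5) met an E11.5-alone Hoxa13 peak. This share was 34.3% when any overlap had to cover 50% of both peaks. That rule also set the stage classes, so 111604 peaks counted as E11.5-alone, some of them sharing bp with another stage. With the widest 44699 peaks of each Hoxa13 list, which left 19805 E11.5-alone peaks, the share was 9.87%. With the 1 bp rule, 164 of the 1023 sites (16.0%) met E11.5-alone peaks as their sole kind of E11.5 peak. None of the 164 met Hoxa13 at E11.0 or E12.5. A further 636 sites met only E11.5 peaks with a partner at another stage, and 213 met no E11.5 peak. Per replicate the shares that met an E11.5-alone peak were 21.5% of 2953 peaks (20.001 to 22.996) in replicate 1 and 16.1% of 1647 (14.3 to 18.0) in replicate 2. Among peaks found in 1 replicate only, they were 24.2% of 1897 (22.3 to 26.2) in replicate 1 and 16.6% of 583 (13.7 to 19.9) in replicate 2. Replicate 1 is the one that shares an input with Hoxa13 at E11.5, and the part of the shared input in this gap was not tested.

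The strength of the Hoxa11 peaks at E11.5-alone sites overlapped that of the other Hoxa11 peaks. In replicate 2, whose list alone carries scores, the authors' fold enrichment (height over the caller's background) had a median of 3.94 over the 258 peaks that met only E11.5-alone sites, with the middle 50% at 3.49 to 4.54. The 901 peaks that met only E11.5 sites with a partner had a median of 4.05 (3.45 to 5.14), and the 481 that met no E11.5 peak had 3.43 (2.86 to 4.05). The median −log10 q-value was 6.43 for the first, 7.78 for the second and 6.43 for the last. By rank within that list, the share of Hoxa11 peaks that met only E11.5-alone sites was 10.9% (7.76 to 14.8) among the 330 peaks highest in −log10 q and 18.8% (14.7 to 23.4) among the 330 lowest.

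Replicate 1 found 62.8% of the 258 replicate 2 peaks at E11.5-alone sites, 74.6% of those at sites with a partner and 46.6% of those without an E11.5 peak. Hoxa11 peaks at E11.5-alone sites thus lay between the other groups in how often the second library found them too. Their median width was 265 bp, against 316 bp at sites with a partner and 264 bp without an E11.5 peak.

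Most Hoxa11 summits fell inside the E11.5-alone peaks. The summit is the base where the authors' caller placed the highest signal. For 241 of the 267 E11.5-alone peaks that met replicate 2 (90.3%, 86.1 to 93.5), the nearest summit lay within the Hoxa13 peak. Over all 267 the median distance from that summit to the peak centre was 53.5 bp. Early-shared peaks gave 92.5% of 40 with the summit inside and a median of 73.5 bp. In late-shared peaks the summit lay inside in 93.5% of 448 and at a median of 62.5 bp. Peaks of all 3 stages gave 94.7% of 397 and 90 bp. The peaks compared were of unequal width, with medians of 343, 434, 476 and 688 bp in the order given, and a narrow peak holds its centre nearer to any base in it.

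**Figure D3:**
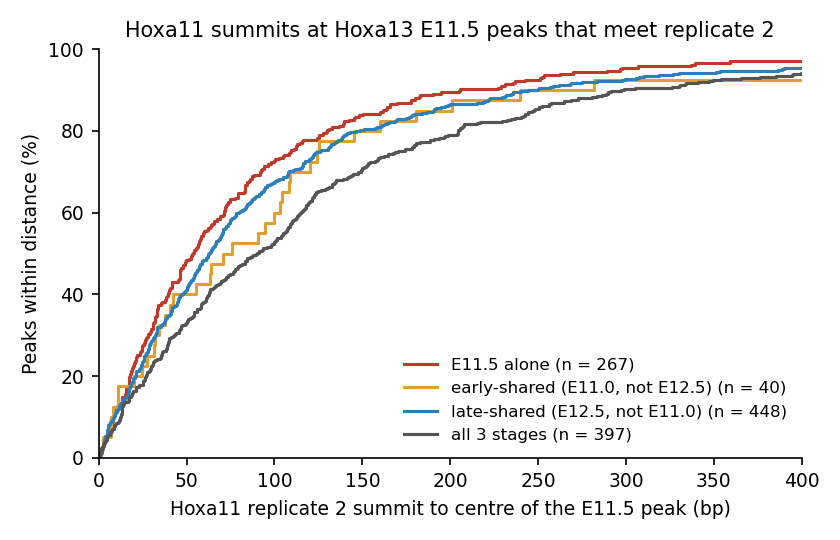
Cumulative share of Hoxa13 E11.5 peaks that meet Hoxa11 replicate 2 (y axis, %) by the distance from the nearest Hoxa11 summit to the centre of the Hoxa13 peak (x axis, bp), for each stage class (colours). The curve of the 267 E11.5-alone peaks lies above the others over most of the axis, with 48.3% within 50 bp, against 40% of early-shared, 41.3% of late-shared and 33.2% of all-stage peaks.

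E11.5-alone sites with Hoxa11 lay nearer to E12.5 Hoxa13 peaks than those without. The median distance to the nearest E12.5 peak was 9006 bp for the 177 members with a replicated Hoxa11 site and 17684 bp for the other 96485. For the nearest E11.0 peak the medians were 17472 and 17059 bp. Within 5 kb of an E12.5 peak were 61 of the 177 (34.5%, 27.5 to 42.0), against 19.3% of all members, and within 5 kb of an E11.0 peak were 34 (19.2%, 13.7 to 25.8), against 19.4%. In each of the 5 width groups the median distance to E12.5 was shorter with Hoxa11, from 6835 against 18122 bp at 231 to 266 bp to 14144 against 18130 bp at 267 to 308 bp. Those groups held 15 to 80 members with Hoxa11, and for E11.0 the medians differed in both directions among them.

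**Figure D4:**
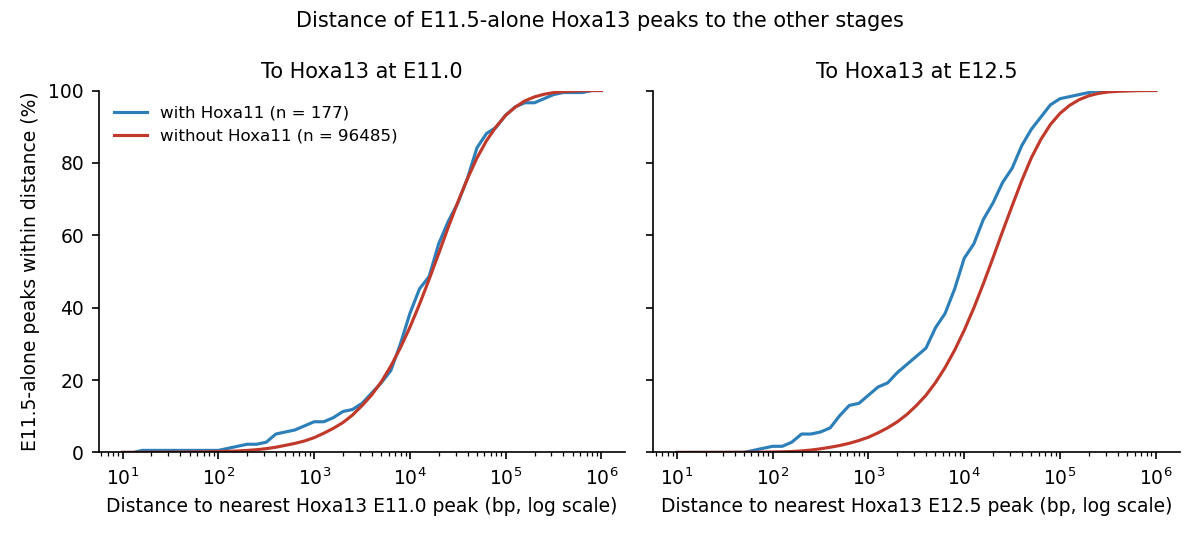
Cumulative share of E11.5-alone Hoxa13 peaks (y axis, %) by distance to the nearest Hoxa13 peak of E11.0 (left) or E12.5 (right; x axis, bp, log scale), for the 177 members with a replicated Hoxa11 site (blue) and the 96485 without (red). On the left the blue curve lies above the red at short range (8.47% against 4.08% by 1 kb) and the curves then come together, while on the right the blue curve lies above the red from short distances on and reaches 34.5% by 5 kb.

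Of those 177 members, 18 lay within 500 bp of an E12.5 peak (10.2%), against 1.93% of all members, and 10 within 500 bp of an E11.0 peak (5.65%), against 1.97%. Their widths ran from 203 to 1130 bp with a median of 349 bp. All but 1 were on the assembled chromosomes and 7 were on chromosome X.

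The member with the strongest Hoxa11 signal by the authors' score was such a near miss. It lay on chromosome 3 from 80850696 to 80851112, and the Hoxa11 peak of replicate 2 that it met was 15.3-fold enriched with a −log10 q of 78.2. Its Hoxa11 summit, however, lay 552 bp from the centre of the Hoxa13 peak and outside it, and an E12.5 Hoxa13 peak began 67 bp away. That Hoxa11 peak also met an E11.5 Hoxa13 peak with a partner at another stage, as 7 replicate 2 peaks that met a member did. Its strength therefore cannot be credited to the E11.5-alone site. The member on unplaced sequence of chromosome 4 (4_random, 136610 to 136812) was likewise a near miss. It met a Hoxa11 peak of 11.4-fold whose summit lay outside it, and an E12.5 peak was 83 bp away.

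The other 8 of the 10 named members had the Hoxa11 summit inside the Hoxa13 peak and no Hoxa13 peak of another stage within 1 kb. On chromosome 14 from 23834825 to 23835376, a peak of 552 bp, Hoxa11 was 9.71-fold enriched (−log10 q 75.1), and the nearest Hoxa13 peaks were 17472 bp away at E11.0 and 42338 bp at E12.5. On chromosome 7 from 57260905 to 57261167 the Hoxa11 summit was 10 bp from the centre of a Hoxa13 peak of 263 bp, and Hoxa11 was 13.0-fold enriched. Only 38.0% of E11.5 peaks were narrower than that one, so the strength of Hoxa11 and the width of Hoxa13 did not go together there.

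On chromosome 16, the member from 78069790 to 78070122 held a Hoxa11 peak of 12.0-fold, with its summit 33 bp from the centre. A pair of members on chromosome 11, from 87275933 to 87276183 and from 87284986 to 87285264, held Hoxa11 peaks of 5.38-fold and 5.15-fold. On chromosome 5 from 120078505 to 120079032 Hoxa11 was 8.16-fold enriched, and on chromosome 2 from 75332317 to 75332804 it was 8.23-fold. These last sites had an E12.5 Hoxa13 peak 2527 and 1947 bp away and one of E11.0 at 17059 and 21344 bp. On chromosome 18 from 79224804 to 79225456, Hoxa11 was 6.97-fold enriched and both outer stages were more than 47 kb away, at 47812 bp for E11.0 and 47789 bp for E12.5.

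The 5 widest E11.5-alone peaks on the assembled chromosomes held no Hoxa11 peak of either replicate. They were intervals of 1611 bp on chromosome X from 151189141 to 151190751, of 1427 bp on chromosome 2 from 24124247 to 24125673 and of 1221 bp on chromosome 17 from 3683383 to 3684603. The next were 1202 bp on chromosome 10 from 95457304 to 95458505 and 1181 bp on chromosome 15 from 18367110 to 18368290. The chromosome 2 interval lay 34571 bp from the nearest Hoxa13 peak of another stage, while the chromosome 15 interval lay 593 bp from an E12.5 peak. All were shorter than the widest peaks with a partner, which reached 4980 bp. Of the 924 E11.5-alone peaks of 601 bp or more, 56 (6.06%) met Hoxa11 replicate 1 and 21 (2.27%) met replicate 2. At that width the early-shared peaks gave 4.15% and 1.32% for the 2 replicates. Late-shared peaks gave 23.2% and 14.6%, and those of all stages 20.1% and 14.1%. With E11.5-alone shares that low, a lack of Hoxa11 in the 5 widest does not set them apart from other wide members. A slightly narrower member of 1130 bp, on chromosome 2 from 171560366 to 171561495, did meet a replicated Hoxa11 site.

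Members had another member nearby in most cases. Within 10 kb another E11.5-alone peak was found for 57957 members (59.96%, 59.6 to 60.3), against 73.4% for any E11.5 peak with any other, and the median gap between neighbours was 7354 bp. Both shares rise with the number of peaks placed. The nearest E11.5 peak with a partner was farther off, at a median of 15836 bp, and was within 1 kb for 5.12% of the members. E11.5-alone peaks made up 67.4% of the list, and both distances shorten with the number of peaks they are measured to.

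Along the chromosomes the members fell into 30655 runs of successive E11.5-alone peaks, of which 10009 were a single peak. Runs of 10 or more numbered 1051 and held 13072 members. With 67.4% of the E11.5 peaks being members, runs of them arise from that share alone. Whether these runs exceed what the share gives was not tested. The longest held 36 members over 1345 kb of chromosome X, from 54842354 to 56186894, a stretch that also held 10 E11.0 and 6 E12.5 peaks at other positions. On chromosome 6 a run of 31 members lay within 303 kb, from 143655391 to 143958756, with 1 E11.0 and 4 E12.5 peaks between them. Runs of 29 members on chromosome 12 from 31477904 to 31996548 and of 27 on chromosome 5 from 124904479 to 126786787 and on chromosome 6 from 87305699 to 88094271 followed.

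By windows of 1 Mb the E11.5-alone share was even over most of the genome. Over the 1390 windows with at least 50 E11.5 peaks its median was 67.7%, with the middle 50% at 63.6 to 71.7%, and in 31 of them it was under 50%. The highest shares were 86.8% of 53 peaks on chromosome 1 from 132000001 to 133000000 and 86.2% of 58 on chromosome 14 from 120000001 to 121000000. Chromosome 3 from 56000001 had 85.2% of 61, chromosome 10 from 116000001 had 84.9% of 53 and chromosome 14 from 49000001 had 84.7% of 59. Their exact intervals, such as 74.7 to 94.5% for the first, reached down to 72.4% at the lowest. These windows were picked as the highest of the 1390, which intervals for single windows do not allow for. Whether their shares exceed what such picking gives was not tested.

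The 5 lowest shares were all in windows where Hoxa13 peaks of other stages were unusually dense. They were 12.4% of 89 peaks on chromosome 4 from 145000001 to 146000000, 14.5% of 69 on chromosome X from 3000001, 16.1% of 62 from 31000001 and 16.7% of 66 from 30000001 on the same chromosome, and 16.9% of 118 on chromosome 13 from 66000001. These windows held 131 to 272 E11.0 peaks each. Over all 26 windows whose count exceeded the third quartile of a Hoxa13 list by more than 3 interquartile ranges, 542 of 1968 E11.5 peaks were E11.5-alone (27.5%, 25.6 to 29.6), and on unplaced sequence 177 of 590 were (30.0%, 26.3 to 33.9). In the other windows the share was 68.1% (67.8 to 68.3). A window dense in outer-stage peaks tends to leave fewer E11.5 peaks without a partner by the rule's own working. How much of the lower share in these windows goes with that was not tested.

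The windows with the most E11.5-alone sites lay on chromosomes 16, 5, 14 and 10. On chromosome 16 the window from 77000001 held 113 members among 155 E11.5 peaks, that from 74000001 held 112, that from 63000001 held 96 and that from 67000001 held 93. Chromosome 5 had 111 from 82000001 and 102 each from 12000001 and 80000001. Chromosome 14 had 95 from 98000001, and chromosome 10 had 93 from 16000001 and 92 from 103000001. The median window held 36. The shares in these 10 windows, from 59.6% to 72.9%, were near that of the whole list, and each held 134 to 164 E11.5 peaks, against a median of 52. None was among the 26 dense windows, and together they gave values of 0 to 3 E11.5 peaks with a replicated Hoxa11 site per window.

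By chromosome the E11.5-alone share ran from 65.9% (64.8 to 67.0) on chromosome 14 to 70.1% (68.8 to 71.3) on chromosome 11 among the autosomes, and was 64.5% (63.1 to 65.9) on chromosome X. Chromosome Y held 17 members among 40 peaks. The number of members per Mb of occupied span differed more, from 25.1 on chromosome 7 and 30.9 on chromosome 11 to 46.7 on chromosome 3 and 48.8 on chromosome 16, with 17.9 on chromosome X. This went with the number of all E11.5 peaks. They were 5654 over 149 Mb on chromosome 7, 6884 over 95.3 Mb on chromosome 16 and 4530 over 163 Mb on chromosome X. The X members were also narrower, at a median of 249 bp against 264 to 270 bp on the autosomes.

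The 4 Hox gene clusters encode Hoxa13, Hoxa11 and their relatives, and the HoxA and HoxD clusters are regulated by Hox13 proteins in the digit-forming limb. Their 1 Mb windows were placed from general knowledge of the mm9 map, and a member in a window was not placed inside or outside the cluster. The HoxD window, on chromosome 2 from 74000001 to 75000000, held 80 E11.5-alone peaks among 129 (62.0%, 53.1 to 70.4), more members than 98.1% of windows. The HoxA window, on chromosome 6 from 52000001 to 53000000, held 77 among 114 (67.5%, 58.1 to 76.0), more than 97.3% of windows. The HoxC window on chromosome 15 held 41 among 52 (78.8%, 65.3 to 88.9) and the HoxB window on chromosome 11 held 25 among 37 (67.6%, 50.2 to 82.0). Each interval includes the 67.4% of the whole list, and the many members of the HoxA and HoxD windows went with many E11.5 peaks in all.

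Of the 223 members in these windows, 5 met a replicated Hoxa11 site (2.24%, 0.732 to 5.15), against 0.183% of all members. Of all 332 E11.5 peaks in the windows, 14 met one (4.22%, 2.32 to 6.97), against 0.593% of the whole list. The windows had been picked with their Hoxa11 counts known, so these shares are a description. In the HoxD window the peak from 74536836 to 74537264 met both replicates (3.99-fold in replicate 2) and lay 1326 bp from an E12.5 Hoxa13 peak. In the HoxA window it was the peak from 52788297 to 52788736 (4.52-fold), with both outer stages about equally far, at 6947 and 7244 bp. The HoxB window held one from 96180553 to 96180855 (4.74-fold), more than 32 kb from other Hoxa13 stages, at 35813 bp for E11.0 and 32534 bp for E12.5. In the HoxC window there were a pair, from 102828396 to 102828833 (4.61-fold) and from 102865573 to 102866027 (3.50-fold), with E12.5 peaks 1607 and 2116 bp away. In the HoxC and HoxD windows each of these members was nearer to an E12.5 than to an E11.0 Hoxa13 peak.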

How the data were processed

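The build was mm9, and the tools named were MACS2 2.1.0, Bowtie2 2.2.2 and CASAVA 1.4, per the submitters' processing notes. Roles, thresholds and the use of input are not given in the sources used here. The authors deposited 5 peak lists, 1 per ChIP library. Those of Hoxa13 and of Hoxa11 replicate 1 hold positions only. That of Hoxa11 replicate 2 also holds the authors' score, fold enrichment (a ratio), −log10 p-value and −log10 q-value, and the summit, and in 100% of peaks the deposited score is 10 times the −log10 q-value, cut to a whole number. These were used only within that list. The members, windows and comparisons were chosen with earlier results of these data known.

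Overlap meant at least 1 bp. Distances count the bp between peak ends. Hoxa11 peaks of both replicates that overlapped were merged. Shares have exact Clopper-Pearson intervals at 95% and differences Newcombe intervals. Width groups are quintiles of the E11.5 widths. The interval code (Python 3.11.15, pandas 2.3.3, SciPy 1.17.1) was checked on simulated intervals and against bedtools 2.31.1.

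Named were the 10 members with a replicated Hoxa11 site highest in replicate 2 score, the 5 widest on chromosomes 1 to 19, X and Y, the 5 longest runs, the 10 windows richest in members, and the 5 highest and 5 lowest in share among those with at least 50 E11.5 peaks. The planned gene and motif counts were not made, since no mm9 genome was in hand.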

Additional observations from a re-analysis of the deposited data

How the results depend on the processing

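The E11.5-alone share of 67.4% was 77.8% when an overlap had to cover 50% of both peaks, 65.2% when a peak within 500 bp counted as met, 44.3% with the widest 44699 peaks of each list, 58.4% with the widest 10000, and 67.9% without the 26 dense windows. The 50% rule held for stages and Hoxa11 alike, so its 111604 members include peaks that share bp with another stage. The share of members with a replicated Hoxa11 site, 0.183%, was 0.315% under the 50% rule, 0.515% with the widest 44699 peaks and 0.108% with the upper 50% of replicate 2 by score. Without one Hoxa11 replicate it was 0.276% (replicate 2 alone) to 0.654% (replicate 1 alone). The share of replicated Hoxa11 sites that met a member, 17.0%, was 34.3% under the 50% rule and 9.87% with the widest 44699 peaks. Without one replicate it was 16.1% to 21.5%. Members with another member within 10 kb, 59.96%, were 38.96% within 5 kb and 96.3% within 50 kb.

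The difference in Hoxa11 share from late-shared peaks was negative, with an interval that excludes 0, under all 9 alternatives run for it. The difference of 0.0558 points from early-shared peaks was positive under all 9. Its interval excluded 0 in 4 of them: with the widest 44699 peaks (0.286 points), without replicate 2 (0.145 points, against 0.0216 without replicate 1), without the dense windows (0.0788 points) and in the widest quintile (0.451 points). The alternatives for both differences, the widest 10000 peaks and the dense windows were chosen after seeing the data. No paired analysis was possible because only the Hoxa11 group has numbered replicates. Depth per library is unknown, so absence from a list cannot be told apart from low coverage.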
